A study of Mus musculus with 4 samples.

Results

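Heat shock proteins and the DnaJ cochaperones were followed in regulatory T cells (Tregs) of thymus and spleen. Members were the array's non-control probes whose gene name marks a heat shock protein (the Hspa, Hspb, Hspd, Hspe, Hsph and Hsp90 names) or a DnaJ protein of class A, B or C. These were 110 probes of 73 genes, among 55681 probes and 22328 genes that could be named through RefSeq. They comprised 28 genes with an Hsp name and 45 DnaJ genes. The rule uses gene names only.

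The study set Tregs of deltaDC mice against those of wild-type (WT) mice, in 4 groups of 1 one-colour array each: deltaDC thymus, WT thymus, deltaDC spleen and WT spleen. All mice were males of the C57BL/6 strain, and the cells of 3 mice of a genotype were pooled before sorting. What deltaDC stands for is not written out in the labels, where neither age nor allele is given; mice lacking dendritic cells are usually meant by it. Splenic CD4 T cells came from a negative-selection kit and thymic ones from a CD8 depletion, and both were then sorted as live CD4+ CD25+ cells, a gate that does not use Foxp3. From each pool, 10 ng of RNA was labelled with Cy3.

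Heat shock proteins hold unfolded proteins and help them fold. Hsp70 works in cycles of ATP hydrolysis, which DnaJ proteins (Hsp40) start by delivering the client and exchange factors such as the Hsp110 proteins end, and clients may then pass to Hsp90 or to a chaperonin. Most members are made at all times, whereas Hspa1a and Hspa1b encode the Hsp70 that cells make on stress, when the factor HSF1 binds repeats of the GAA unit, the heat shock elements, in their promoters. The endoplasmic reticulum (ER) has its own set, induced by the unfolded protein response through the ER stress element.

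Values are scaled signals, that is, background-subtracted fluorescence after each array was brought to the same 75th percentile, 388. A member counts as measured where its probe was well above background by the scanner's flag. With 1 array per group, no difference between a pair of arrays has a p-value. The only error at hand is the spot error, taken from the spread of repeated spots of probes of like brightness. It ranged from 0.27 log2 units below a signal of 50 to 0.05 above 10000, and it holds no variation between mice or labellings. Only 2 of the 110 member probes have repeated spots, so for the others, Hspa1a included, it is borrowed from other probes. For a difference, the errors of both arrays were combined. All differences are in log2 units, deltaDC minus WT or thymus minus spleen, and 1 unit is 2-fold.

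The arrays were alike in brightness, with 48.7% to 50.7% of non-control spots well above background and 0 saturated spots. All 6 Treg markers and all 5 T cell markers on the array were above background on every array. Foxp3 read 10557 on deltaDC thymus, 8860.4 on WT thymus, 10867 on deltaDC spleen and 11661 on WT spleen. The Treg markers were not all level. Il2ra (CD25, used in the sort) read 15485 on deltaDC spleen against 28939 on WT spleen (-0.90). Nrp1 read 410 on deltaDC thymus against 665 on WT thymus (-0.70). Between the genotypes 0 of the 6 reached 2-fold in either organ. Markers of other cells differed between arrays. The 8 neutrophil markers, of which 6, 6, 8 and 2 were above background on deltaDC thymus, WT thymus, deltaDC spleen and WT spleen, summed to 2458 on deltaDC thymus, 938 on WT thymus, 9969.8 on deltaDC spleen and 166 on WT spleen. S100a8 and S100a9 were not above background on WT spleen. Of the 7 NK cell markers, 6, 5, 7 and 5 were above background in the same order of arrays. They summed to 8391 on deltaDC thymus, 7818 on WT thymus, 29746 on deltaDC spleen and 3360.2 on WT spleen. Most of each sum was Nkg7, at 7537, 7326, 23544 and 2588 in that order. Klrb1c read 102, 49.6, 2544 and 85.3, so WT thymus was below WT spleen, unlike in the sums. Ncr1 was above background on deltaDC spleen alone. Of the 8 B cell markers, 7, 6, 6 and 3 were above background. They summed to 7046 on deltaDC thymus, 3488 on WT thymus, 1984 on deltaDC spleen and 2099 on WT spleen. In spleen most of the sum was Cd79b, at 1829 on deltaDC spleen and 1953 on WT spleen. Ms4a1 was not above background on WT spleen and Pax5 on no array. Such sums follow the brightest probes and do not measure the share of a cell type. The 5 erythroid markers, 4 of them above background on every array, summed to 16652 on deltaDC thymus, 4042 on WT thymus, 5693 on deltaDC spleen and 2040.0 on WT spleen. The 2 CD8 T cell markers, 2, 2, 1 and 1 of them above background, summed to 952, 737, 312 and 382 in the same order of arrays. The 6 thymic epithelial markers, 4, 3, 1 and 1 of them above background, summed to 424, 272, 135 and 118. Of 7 dendritic cell markers, 4, 5, 4 and 1 were above background. Among these, Itgax, Flt3 and Zbtb46 were above background on deltaDC spleen but not on WT spleen. Others went the other way. Siglech, by far the brightest, read 44999.5 on deltaDC spleen against 70027.6 on WT spleen (-0.64). Cd209a was above background on WT thymus alone, at 119.5. The part of such cells in the differences below was not tested.

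The probe of the inducible Hsp70 and the promoters of 4 members described below are shown first. One probe on the array measures the inducible Hsp70, at chr17:35107117-35107176 (mm9, minus strand). It is named Hspa1a, but it carries RefSeq accessions of both Hspa1a and Hspa1b, and no probe is named Hspa1b, so its signal is that of both genes together. The most similar probe of another Hsp70 or Hsp110 member is that of Hspa1l, the testis member of this gene cluster, at chr17:35115629-35115688 (mm9, plus strand). Over 57 overlapping bases the probes share 42, and the 15 bases at which Hspa1l differs are in capitals.
Hspa1a probe: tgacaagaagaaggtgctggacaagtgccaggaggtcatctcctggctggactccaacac
Hspa1l probe: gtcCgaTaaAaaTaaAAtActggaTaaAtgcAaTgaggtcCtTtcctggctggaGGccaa
The next most similar probe, one of Hspa4, shared 45% of the overlapping bases. The Hspa1l probe was not above background on any array, at 5.28 on deltaDC thymus, 3.24 on WT thymus, 5.85 on deltaDC spleen and 12.6 on WT spleen.

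Promoters were taken from RefSeq (GRCm38.p6), from 250 bases before to 50 bases after the start of transcription. Of the 73 genes, 59 had an entry, and Hspa1b, which has no probe of its own, had one too. Capitals mark a pair of inverted heat shock units, GAANNTTC, in Hspa1a (chr17:34972107-34972406, minus strand) and in Hspb1 (chr5:135887669-135887968, plus strand), a stress-induced small heat shock protein. In Hspa5 (chr2:34771840-34772139, plus strand) and Hsp90b1 (chr10:86705395-86705694, minus strand), which encode the main ER chaperones, capitals mark the ER stress element, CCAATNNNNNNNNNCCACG, on either strand.
Hspa1a promoter: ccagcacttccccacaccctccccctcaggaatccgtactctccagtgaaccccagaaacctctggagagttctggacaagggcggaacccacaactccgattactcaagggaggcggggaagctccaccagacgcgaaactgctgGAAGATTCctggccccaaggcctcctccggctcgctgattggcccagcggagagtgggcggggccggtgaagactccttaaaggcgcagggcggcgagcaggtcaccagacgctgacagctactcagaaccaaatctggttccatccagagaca
Hspb1 promoter: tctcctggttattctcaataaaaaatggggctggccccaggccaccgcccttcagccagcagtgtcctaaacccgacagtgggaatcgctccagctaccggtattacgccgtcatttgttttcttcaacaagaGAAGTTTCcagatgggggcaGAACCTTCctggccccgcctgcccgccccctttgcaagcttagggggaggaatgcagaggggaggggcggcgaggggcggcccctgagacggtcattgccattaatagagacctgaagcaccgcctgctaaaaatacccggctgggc
Hspa5 promoter: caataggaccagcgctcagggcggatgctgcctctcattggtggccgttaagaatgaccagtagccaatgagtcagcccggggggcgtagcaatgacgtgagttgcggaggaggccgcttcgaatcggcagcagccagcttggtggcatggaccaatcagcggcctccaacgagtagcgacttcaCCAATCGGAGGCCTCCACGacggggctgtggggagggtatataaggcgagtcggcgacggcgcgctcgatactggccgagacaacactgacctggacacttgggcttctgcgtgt
Hsp90b1 promoter: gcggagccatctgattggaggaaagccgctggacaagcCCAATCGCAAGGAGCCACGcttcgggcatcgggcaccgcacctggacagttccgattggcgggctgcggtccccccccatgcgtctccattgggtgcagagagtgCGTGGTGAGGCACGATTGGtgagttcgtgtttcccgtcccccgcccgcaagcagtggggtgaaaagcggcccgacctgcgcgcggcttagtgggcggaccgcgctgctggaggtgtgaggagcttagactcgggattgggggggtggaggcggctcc
The Hspa1b promoter was identical to that of Hspa1a at 296 of 300 bases, and in both genes the heat shock pair starts 104 bases before the start site. Hspb1 had 2 such pairs, and Dnajb1, the stress-induced DnaJ gene described below, had none of the heat shock motifs searched. With Hspa1b included, 14 of 60 member genes (23.3%) had GAANNTTC in a promoter, against 9.04% of 27025 genes. The opposite arrangement, TTCNNGAA, stood in 6 of 60 (10%), against 9.6% of all genes. Runs of 3 units (GAANNTTCNNGAA or TTCNNGAANNTTC), which contain both pairs, stood in 4 of 60, those of Hsph1, Hspd1, Hspe1 and Dnajb6 (6.67%, against 0.662%). The ER stress element stood in 3 of 60, those of Hspa5, Hsp90b1 and Dnajc3 (5%, against 0.137%). All these motifs were searched on both strands, and a match describes letters only.

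The inducible Hsp70 had the largest difference of the 60 members measured on all 4 arrays, between the genotypes in thymus and between the organs in both genotypes. In spleen its genotype difference was about as large as that of Hspa2, which had the opposite sign. Its probe read 1255 on deltaDC thymus, 7960.4 on WT thymus, 51.1 on deltaDC spleen and 144 on WT spleen. Both thymus arrays were above both spleen arrays, and within each organ the deltaDC array was below the WT array. DeltaDC thymus was 6.34-fold lower than WT thymus (-2.66, spot error 0.08). DeltaDC spleen was 2.82-fold lower than WT spleen (-1.49, spot error 0.18). Thymus was 24.6-fold higher than spleen in deltaDC mice (4.62) and 55.3-fold higher in WT mice (5.79). The genotype difference in spleen rests on dim signals, and with another background correction (normexp) it was -0.93, under 2-fold. In pooled RNA, fewer cells that make a transcript and less of it per cell cannot be told apart.

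**Figure D1:**
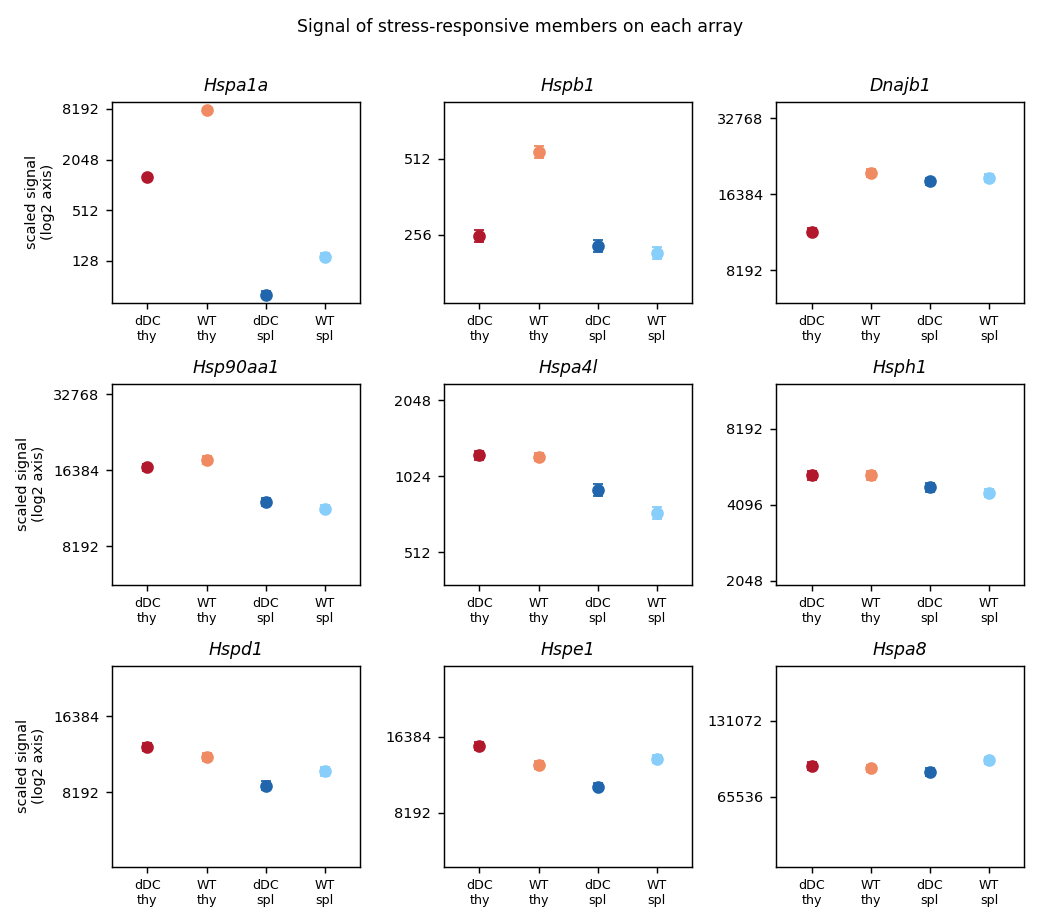
Scaled signal (log2 axis, own range in each panel) of 9 members known as targets of HSF1 on the 4 arrays, deltaDC (dDC) and WT, thymus (thy) and spleen (spl). Points are single arrays and bars the spot error. Hspa1a is 1255 on deltaDC thymus against 7960.4 on WT thymus, Hspb1 and Dnajb1 have their low and high thymus values on the same arrays, and the other members vary by less than 2-fold.

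The constitutive chaperones listed for comparison differed less. The list holds 16 chaperones made at all times, among them Hspa8, Hspa5, Hsp90ab1, Hspd1 and Dnaja2. It was chosen with earlier results known. Every member that reached 2-fold in some comparison is left out, such as Hspa2, Dnajc12, Dnajc15 and Dnaja4. Of the 16, Hspa8, Hsp90ab1, Hspd1 and Hspe1 are also known as HSF1 targets. Over the 16 the median difference between deltaDC and WT was 0.02 in thymus, with a range of -0.28 to 0.27. In spleen it was -0.07, with a range of -0.45 to 0.50. Between thymus and spleen the medians were 0.08 in deltaDC mice (-0.82 to 0.54) and -0.07 in WT mice (-0.57 to 0.68). Taken relative to these medians, the inducible probe differed between deltaDC and WT by -2.69 in thymus and by -1.42 in spleen, and between thymus and spleen by 4.54 in deltaDC mice and 5.86 in WT mice. In each of the 4 comparisons it lay outside the range of the 16. All 16 stayed within 2-fold over the 4 arrays, as did 80.6% of all genes. Since the list holds no member that reached 2-fold in a comparison, neither its range nor this count is a test.

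Few other members reached 2-fold. Between deltaDC and WT thymus, 3 of 60 measured members did, 1 higher (Hspb9) and 2 lower (Hspa1a and Hspb1), against 1.6% of all 13053 genes measured on both arrays (0.927% higher, 0.674% lower). The members' median difference was 0.04 and that of all genes 0.05. Between deltaDC and WT spleen, 3 of 60 did, 2 higher (Hspa2 and Dnajc12) and 1 lower (Hspa1a), against 8.38% of 12541 genes (6.36% higher, 2.03% lower), with medians of 0.03 for members and -0.01 for all genes. Between thymus and spleen, 6 of 60 did in deltaDC mice, 2 higher and 4 lower, against 11.5% of genes (5.4% higher, 6.12% lower). In WT mice 6 of 60 did, 4 higher and 2 lower, against 9.54% of genes (6.52% higher, 3.03% lower). As a group the members were thus near or below the background in all but the thymus genotype comparison, where 3 members carried the count. Over the 4 arrays, 49 of 60 members (81.7%) stayed within 2-fold, against 80.6% of 12297 genes. Over the 60 members the median ratio of the highest to the lowest array was 1.37, against 1.42 for all genes.

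**Figure D2:**
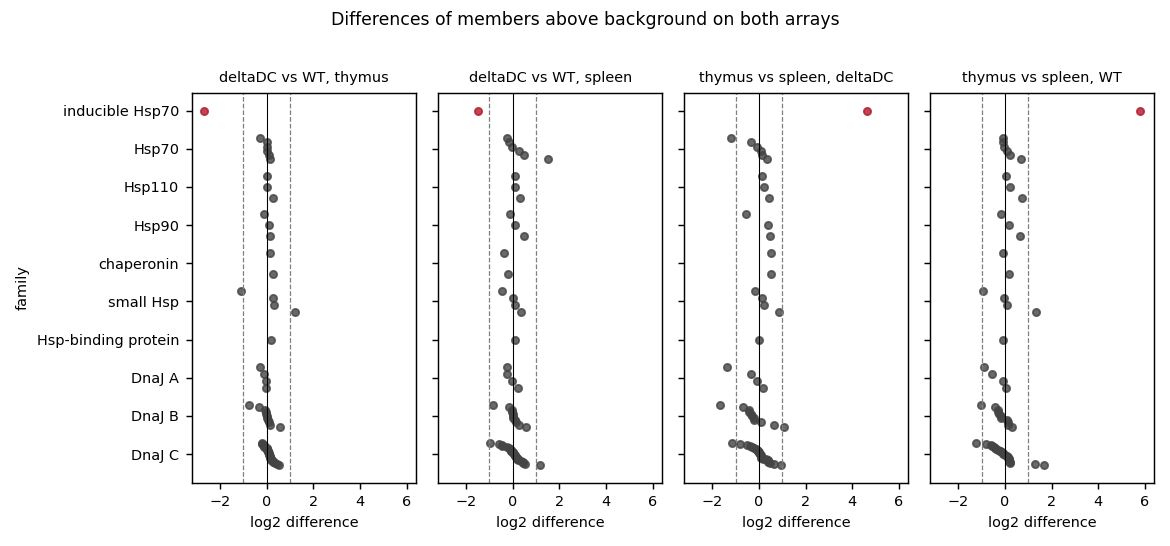
Log2 difference (x axis) of the 60 members measured on both arrays, by family (y axis), in 4 comparisons, deltaDC minus WT or thymus minus spleen. Each point is a gene, red for the inducible Hsp70, and dashed lines mark 2-fold. The red point is at -2.66 and -1.49 between the genotypes and at 4.62 and 5.79 between the organs, and most other points lie between the dashed lines.

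The joint test over all 4 arrays, a limma fit of genotype plus organ with 1 residual degree of freedom, called 0 of 60 members for genotype and 0 of 60 for organ at an adjusted p under 0.05. It also called 0 of 13507 genes (0%) for either factor. At an unadjusted p under 0.05, 1 member and 578 of all genes passed for genotype, and 8 members and 2703 genes for organ. Hspa1a had the smallest p among members in both, for genotype with a difference of -2.08 (SE 0.37, limma adjusted p = 0.808) and for organ with 5.20 (SE 0.37, limma adjusted p = 0.0755). The fit takes the genotype difference as equal in the organs, where it was -2.66 in thymus and -1.49 in spleen. After normexp background correction Hspa1a passed for organ (limma adjusted p = 0.041, with 1.82% of genes called).

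The cytosolic and nuclear Hsp70 members made without stress were near level. Hspa8, the constitutive Hsc70, read 86578 on deltaDC thymus, 84877 on WT thymus, 82086 on deltaDC spleen and 91239.9 on WT spleen, with differences of 0.03 and -0.15 between the genotypes in thymus and spleen. Hspa14, which works at the ribosome, read 13577 on deltaDC thymus, 12137 on WT thymus, 12359 on deltaDC spleen and 12677 on WT spleen. The other Hspa8 probes read higher on both thymus arrays than on either spleen array. They did so by 0.32 and 0.18 in deltaDC mice and by 0.44 and 0.14 in WT mice. On the probes with values given above, the arrays of Hspa8 and Hspa14 overlapped without order by genotype or organ. Hspa2, an Hsp70 best known from male germ cells, was the exception, at 97.7 on deltaDC thymus, 91.4 on WT thymus, 221 on deltaDC spleen and 78.6 on WT spleen. Its deltaDC spleen value stood 2.81-fold above WT spleen (1.49), and deltaDC thymus was 2.26-fold below deltaDC spleen (-1.18), while the other 3 arrays lay close together. DeltaDC spleen is also the array with the highest sums of neutrophil and NK cell markers, given above, and with normexp both Hspa2 differences were under 2-fold (0.96 and -0.85). Hspa13, a microsomal Hsp70 relative, read 501 on deltaDC thymus, 608 on WT thymus, 523 on deltaDC spleen and 379 on WT spleen, and its 2 probes disagreed between WT thymus and WT spleen, at -0.32 and 0.68.

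The Hsp110 members, which recharge Hsp70 with ATP, were higher in thymus for 2 of 3. Hspa4l read 1236 on deltaDC thymus, 1220.0 on WT thymus, 905 on deltaDC spleen and 730.3 on WT spleen. Hsph1 read 5344 on deltaDC thymus, 5349.6 on WT thymus, 4797 on deltaDC spleen and 4543 on WT spleen. In both genes the thymus arrays were above both spleen arrays, by 0.45 in deltaDC mice and 0.74 in WT mice for Hspa4l and by 0.16 and 0.24 for Hsph1. Hspa4 read 19279 on deltaDC thymus, 15965 on WT thymus, 16515 on deltaDC spleen and 15351 on WT spleen, with deltaDC thymus the highest and no order by organ.

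Hsp90 folds kinases and steroid receptors in the cytosol, from an inducible gene, Hsp90aa1, and a constitutive one, Hsp90ab1. Hsp90aa1 read 16795 on deltaDC thymus, 17971 on WT thymus, 12239.9 on deltaDC spleen and 11523 on WT spleen. Hsp90ab1 read 86802 on deltaDC thymus, 79111 on WT thymus, 66061 on deltaDC spleen and 71001 on WT spleen. Both were higher on the thymus arrays than on either spleen array, Hsp90aa1 by 0.46 in deltaDC mice and 0.64 in WT mice. Neither differed between the genotypes by more than 0.13 in either organ. For the inducible Hsp90aa1 the genotype differences were -0.10 in thymus and 0.09 in spleen, against -2.66 and -1.49 for the inducible Hsp70.

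In mitochondria the chaperonin Hspd1 (Hsp60) with its lid Hspe1 (Hsp10) folds imported proteins, and Hspa9 pulls them in. Hspd1 read 12361 on deltaDC thymus, 11275 on WT thymus, 8691 on deltaDC spleen and 9891 on WT spleen. Hspe1 read 15104 on deltaDC thymus, 12659 on WT thymus, 10409 on deltaDC spleen and 13376 on WT spleen. Hspa9 read 7826 on deltaDC thymus, 7858 on WT thymus, 6214 on deltaDC spleen and 7444 on WT spleen. All 3 were lowest on deltaDC spleen, and deltaDC thymus exceeded it by 0.51 for Hspd1, 0.54 for Hspe1 and 0.33 for Hspa9, although the second Hspe1 probe gave 0.03. Between WT thymus and WT spleen they differed by at most 0.19.

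Of 8 small heat shock proteins, which bind unfolded proteins without ATP, 4 were measured. Hspb1 (Hsp27), a stress-induced member, read 254 on deltaDC thymus, 546 on WT thymus, 231 on deltaDC spleen and 217 on WT spleen. The WT thymus array stood alone, with deltaDC thymus 2.15-fold lower (-1.10, spot error 0.11) and WT thymus 2.51-fold higher than WT spleen (1.33), and the other 3 arrays were close. With normexp the thymus genotype difference was -0.98, just under 2-fold. Hspb9, a testis member, was dim, at 70.4 on deltaDC thymus, 30.7 on WT thymus, 60.1 on deltaDC spleen and 59.3 on WT spleen, and its value on WT thymus was the low one (1.20 for deltaDC against WT thymus, spot error 0.30), a difference that normexp reduced to 0.56. Hspb6, a muscle member (Hsp20), read 318 on deltaDC thymus, 267 on WT thymus, 354 on deltaDC spleen and 274 on WT spleen, with each deltaDC array above its WT array. Hspb11, which despite its name is known as a part of the ciliary transport machinery (IFT25), read 2246 on deltaDC thymus, 1782 on WT thymus, 1226 on deltaDC spleen and 1664 on WT spleen, with deltaDC the higher in thymus and the lower in spleen.

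Several ER members were highest on deltaDC spleen. Hsp90b1 (Grp94), which folds Toll-like receptors and integrins, read 9667 on deltaDC thymus, 9072 on WT thymus, 14352 on deltaDC spleen and 10135 on WT spleen. Hspa5 (BiP), the ER Hsp70, read 21981 on deltaDC thymus, 22017 on WT thymus, 27656 on deltaDC spleen and 22787 on WT spleen. Of 8 ER members (Hspa5, Hsp90b1 and 6 ER DnaJ proteins), 6 had their highest value on deltaDC spleen and 0 on WT spleen, where 28.6% and 31.9% of all genes did. The differences were modest, all within 2-fold over the 4 arrays, with a median of 0.25 between deltaDC and WT spleen (highest 0.50, for Hsp90b1) and 0.03 between deltaDC and WT thymus. Dnajb11, the BiP partner that receives newly made chains, read 4015 on deltaDC thymus, 3937 on WT thymus, 5433 on deltaDC spleen and 4461 on WT spleen. Dnajc3 (p58IPK) read 2199 on deltaDC thymus, 2391 on WT thymus, 3872 on deltaDC spleen and 3334 on WT spleen, with both spleen arrays above both thymus arrays (-0.82 in deltaDC mice and -0.48 in WT mice). Hsp90b1, Hspa5 and Dnajc3 are the 3 members with an ER stress element in the promoter. The deltaDC spleen array also had the highest neutrophil and NK cell marker sums, whose part in these values was not tested. Dnajc10 and Dnajc25 were highest on deltaDC thymus. The count of 6 above takes the brightest probe of each gene. Dimmer second probes of Dnajb9 and Dnajc10 read highest on WT spleen, at 189 and 343, against 139 and 296 on deltaDC spleen. The grouping of these 8 was made after their values were seen and does not hold every ER member. Hspa13, above, was highest on WT thymus, and Dnajc14, a J protein of the ER membrane, was highest on WT spleen.

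**Figure D3:**
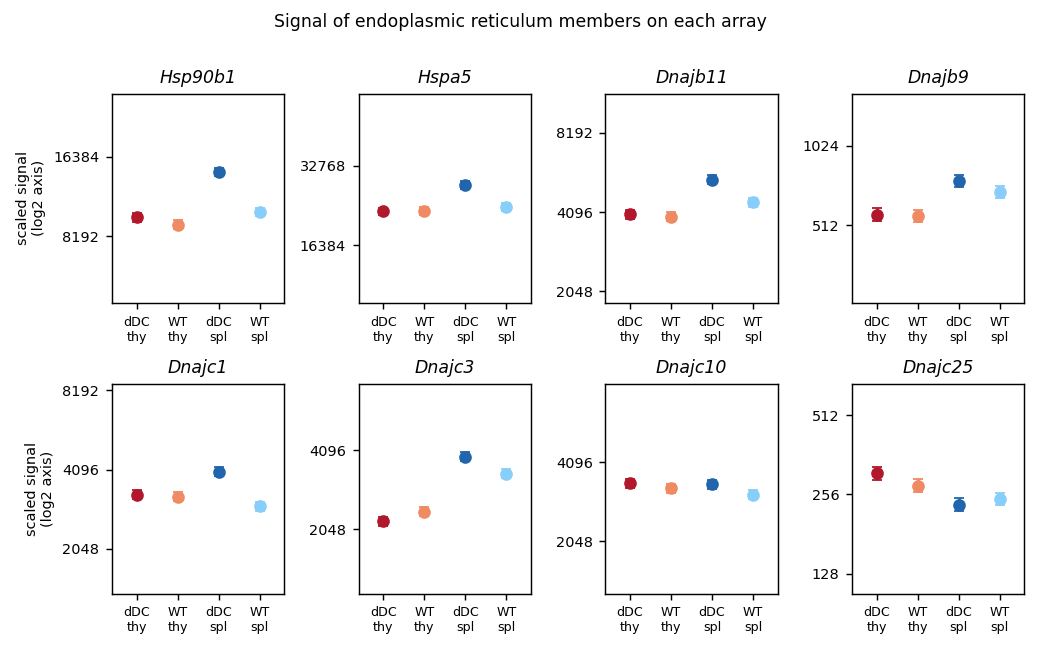
Scaled signal (log2 axis, own range in each panel) of 8 ER members on the 4 arrays, labelled as deltaDC (dDC) and WT, thymus (thy) and spleen (spl), with bars for the spot error. In 6 panels the deltaDC spleen point is the highest, as for Hsp90b1 at 14352 against 10135 on WT spleen.

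Of 45 DnaJ genes, 40 were measured on all 4 arrays, and 33 of these stayed within 2-fold in every comparison. Of all genes 80.6% stayed within 2-fold over the 4 arrays, so staying level is not particular to DnaJ genes. In these 33, differences between deltaDC and WT ran from -0.77 (Dnajb1) to 0.43 in thymus and from -0.84 (Dnajb4) to 0.43 in spleen. Thymus and spleen differed by -0.82 to 0.65 in deltaDC mice and by -0.61 to 0.23 in WT mice. Over the 40 genes the dimmest reading was that of Dnajc28 on deltaDC spleen, 24.1, and the brightest that of Dnajc5 on WT spleen, 51516, though levels of different probes cannot be compared. Dnajc5, a synaptic vesicle chaperone read by 4 probes, was the DnaJ gene whose probes disagreed most, from -0.59 to 0.62 between WT thymus and WT spleen and from -0.58 to 0.45 between deltaDC and WT spleen.

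Dnajb1, the stress-induced Hsp40 that partners inducible Hsp70, read 11642 on deltaDC thymus, 19915 on WT thymus, 18393 on deltaDC spleen and 18995 on WT spleen. DeltaDC thymus stood below the other 3 arrays, with a difference of -0.77 against WT thymus (spot error 0.07). The thymus genotype difference thus had the same sign as for Hspa1a and Hspb1, though under 2-fold, while in spleen Dnajb1 differed by -0.05. Dnajb4, a second stress-responsive Hsp40, was lowest on deltaDC spleen, at 188 on deltaDC thymus, 237 on WT thymus, 121 on deltaDC spleen and 216 on WT spleen.

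Of the DnaJ genes at 2-fold, 3 were lower in thymus of both genotypes. Dnaja4, a class A cochaperone, read 1029 on deltaDC thymus, 1257 on WT thymus, 2664 on deltaDC spleen and 2312 on WT spleen, with thymus minus spleen at -1.37 in deltaDC mice and -0.88 in WT mice. Its second probe gave -1.26 and -0.75. Dnajc15 (MCJ), a mitochondrial inner membrane protein known to restrain the respiratory chain, read 5748 on deltaDC thymus, 5385 on WT thymus, 12896 on deltaDC spleen and 9408 on WT spleen, with -1.17 and -0.81. Dnajb13, best known from the sperm tail, read 74.2 on deltaDC thymus, 78.8 on WT thymus, 236 on deltaDC spleen and 160.1 on WT spleen, with -1.67 and -1.02. In all 3 both spleen arrays were above both thymus arrays, and deltaDC spleen was the highest. Between the genotypes none of them reached 2-fold.

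Dnajc12, a cochaperone of the aromatic amino acid hydroxylases, read 1151 on deltaDC thymus, 887 on WT thymus, 821 on deltaDC spleen and 366 on WT spleen. WT spleen was the low array, with deltaDC spleen 2.24-fold above it (1.17, spot error 0.11) and WT thymus 2.42-fold above it (1.28). Dnajc6 (auxilin), which uncoats clathrin vesicles, was dim, at 65.4 on deltaDC thymus, 74.7 on WT thymus, 34.0 on deltaDC spleen and 23.8 on WT spleen, with both thymus arrays above both spleen arrays (0.95 in deltaDC mice and 1.65 in WT mice). Dnajb3, a testis gene, read 109 on deltaDC thymus, 72.5 on WT thymus, 51.3 on deltaDC spleen and 58.1 on WT spleen. Dnajc27, a Rab-like GTPase with a J domain, read 67.0 on deltaDC thymus, 46.2 on WT thymus, 54.3 on deltaDC spleen and 108 on WT spleen. DeltaDC thymus was the high array for Dnajb3 (1.09 against deltaDC spleen), and WT spleen for Dnajc27 (-1.22 for WT thymus against WT spleen). With normexp the WT organ differences of Dnajc6, Dnajb13 and Dnajc27 and the deltaDC one of Dnajb3 came to 0.55, -0.73, -0.71 and 0.63.

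**Figure D4:**
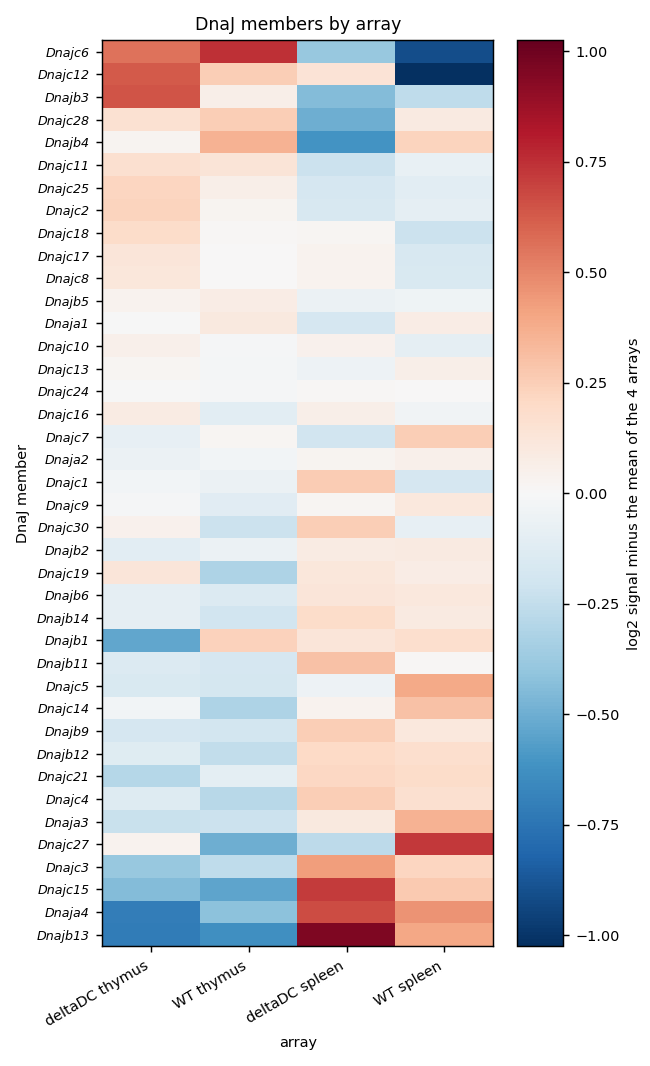
Log2 scaled signal of the 40 DnaJ members measured on all 4 arrays, each minus its mean over the arrays (colour), in order of thymus minus spleen. Dnajc6, Dnajc12 and Dnajb3 stand at the thymus end and Dnajb13, Dnaja4 and Dnajc15 at the spleen end, and 33 of 40 stay within 2-fold in every comparison. Of all genes 80.6% stay within 2-fold over the 4 arrays.

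The remaining 13 genes were not measured on all arrays. Dnajc5b was above background on deltaDC spleen alone, at 49.97, which put it at least 2.89-fold higher than WT spleen and deltaDC thymus at least 3.16-fold lower than deltaDC spleen, each against the lowest signal above background on the dim array. Its other probe was not above background on any array. The other 12, not well above background on any array, were Dnajb7, Dnajb8, Dnajc22, Dnajc5g, Hspa12a, Hspa12b, Hspa1l, Hspb2, Hspb3, Hspb7, Hspb8 and Hspbap1. Hspbp1, which releases nucleotide from Hsp70, was measured and read 2622 on deltaDC thymus, 2314 on WT thymus, 2642 on deltaDC spleen and 2458 on WT spleen.

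Among the 12 members on the array known as HSF1 targets, deltaDC thymus was at least 2-fold below WT thymus for 2, Hspa1a and Hspb1 (0.674% of all genes), and above it for 0 (0.927%), with a list median of -0.05 against 0.05 over all genes. In spleen deltaDC was at least 2-fold below WT for 1 (2.03% of all genes) and above it for 0 (6.36%), with a median of -0.13 against -0.01. Both thymus arrays were above both spleen arrays for 7 of the 12 (Hspa1a, Hspb1, Hspa4l, Hsph1, Hsp90aa1, Hsp90ab1 and Hspd1), where 24.3% of all genes did, and both spleen arrays were above both thymus arrays for 0, where 32.9% did. Over the 60 measured members the counts were 17 (28.3%) and 20 (33.3%). Both deltaDC arrays were above both WT arrays for 13 members (21.7%, against 15.1% of genes), and both WT arrays above both deltaDC arrays for 4 (6.67%, against 10.8%).

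Few genes around the pathway reached 2-fold between the genotypes. Of all genes 1.6% did in thymus and 8.38% in spleen, so in lists this short the counts are near that share. Of 12 HSF1 targets outside the members, 11 and 10 were measured in the genotype comparisons of thymus and spleen, and 0 reached 2-fold in either. The factor Hsf1 itself read 2314 on deltaDC thymus, 2208 on WT thymus, 2265 on deltaDC spleen and 2515 on WT spleen. Of 10 exchange factors 1 did, Bag2, which also releases Hsp70 clients, at 328 on deltaDC thymus, 261 on WT thymus, 119 on deltaDC spleen and 48.2 on WT spleen, with deltaDC spleen above WT spleen by 1.30. Bag2 differed between the organs too, thymus minus spleen being 1.47 in deltaDC mice and 2.44 in WT mice, and these lists held other organ differences of 2-fold or more. Of the 18 cochaperones of Hsp90 and Hsp70, and of the 8 subunits of the cytosolic chaperonin TRiC, 0 reached 2-fold between the genotypes in either organ. The largest of these differences was that of Fkbp5 between deltaDC and WT spleen, at 0.95.

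Immediate early genes, which cells switch on within minutes of a signal or of handling, were mostly lower in deltaDC Tregs, as Hspa1a was. Of 17 measured in thymus, 12 were below WT, 5 of them at least 2-fold, where 0.674% of all genes were, and 0 were at least 2-fold higher, where 0.927% were. Their median was -0.31, and that of all genes 0.05. Of 16 measured in spleen, 13 were below WT, 3 of them at least 2-fold (2.03% of all genes), and 1, Gadd45b (1.09), was at least 2-fold higher (6.36% of all genes). Their median was -0.28, and that of all genes -0.01. Outside these counts, Ier3 was above background on deltaDC spleen (55.5) but not on WT spleen. Zfp36 was above background on WT thymus (31.9) but not on deltaDC thymus. Fos, a subunit of the AP-1 factor, read 578 on deltaDC thymus, 2157 on WT thymus, 264 on deltaDC spleen and 896 on WT spleen. Jun, its partner, read 17801 on deltaDC thymus, 39910.5 on WT thymus, 10431 on deltaDC spleen and 24357 on WT spleen. Ppp1r15a (Gadd34), which ends the translational stress response, read 4329.7 on deltaDC thymus, 12425 on WT thymus, 4258 on deltaDC spleen and 9722 on WT spleen. In all 3 the deltaDC array was below the WT array in both organs, with differences of -1.90 and -1.76 for Fos, -1.16 and -1.22 for Jun, and -1.52 and -1.19 for Ppp1r15a in thymus and spleen. In thymus alone Fosb (-1.22) and Junb (577 on deltaDC thymus against 1154 on WT thymus) also reached 2-fold. Between thymus and spleen these genes had no common direction, with 2 higher and 2 lower in deltaDC mice and 3 higher and 3 lower in WT mice, whereas Hspa1a was higher in thymus in both. Organ and enrichment procedure cannot be told apart, since each organ had its own.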

How the data were processed

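Per the labels, Cy3-labelled RNA of 4 sorted Treg pools was hybridised to 4 one-colour arrays. The deposited scanner output gives spot intensity, per the file headers, background-subtracted within each array by Agilent Feature Extraction 10.7.3.1, and other columns of flags. The authors also deposited a matrix of quantile-normalized log2 values (column medians 4.10 to 4.15, Pearson r across probes 0.997 with the array of the same label), used as an alternative; its offset is unknown. Control spots (3671 of 62976) and outlier spots (110 to 168 per array) were dropped. Intensities were scaled to a common 75th percentile and set to log2, repeated spots averaged, and a gene stood by its probe of highest mean. Of 110 member probes, 100 were named by RefSeq accession and 10 by symbol. Pairs of arrays were compared at 2-fold on genes well above background on both, without a test. Genotype plus organ was fitted with limma 3.58.1 (R 4.3.3) on genes above background on at least 2 arrays, two-sided, with Benjamini-Hochberg adjustment. Both were tested on simulated data that held random noise but no variation between mice or labellings. How they perform under such variation is therefore not known. Genes named with values were chosen by rule: Hsp-named members measured on all arrays, DnaJ members at 2-fold, and genes outside the members at 2-fold between genotypes, all from lists. The Dnajb1 and ER DnaJ values, Hsf1, and the separation of members by organ were added after values were seen. Members and lists were chosen with earlier results of these data known. Alternatives were normexp background correction (offset 50), quantile normalization, centring on the median, the median over probes, other filters, and the matrix. The number of arrays limits the precision.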

Additional observations from a re-analysis of the deposited data

Results flagged for a closer look

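For 4 of the 60 members measured on all arrays, the deltaDC minus WT difference had opposite signs in thymus and spleen, each larger than 2 spot errors, and this difference between the organs was not tested. Hspb11 differed by 0.33 in thymus and -0.44 in spleen, a gap of 0.77 log2 units. Hspa13 differed by -0.28 in thymus and 0.46 in spleen, a gap of -0.74, although its other probe gave 0.47 in thymus. Hspe1 differed by 0.25 in thymus and -0.36 in spleen, a gap of 0.62, and its other probe gave -0.33 in thymus. Dnaja4 differed by -0.29 in thymus and 0.20 in spleen, a gap of -0.49, and its other probe gave -0.48 and 0.03. Spot error leaves out variation between mice and labellings. Groups of 1 array could not be searched for outlying samples.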

How the results depend on the processing

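No paired analysis was possible because each group had 1 array, beyond the limma fit itself, which compares genotypes within organ and organs within genotype. No replicate could be left out for the same reason. Of 18 differences of members at 2-fold or more, none changed sign under normexp, quantile normalization, centring on the median, the median over probes or the deposited matrix. With normexp, 9 of the 18 were under 2-fold, and under the other 4 settings 0 were. With normexp the number of members at 2-fold was 1 between deltaDC and WT thymus, 1 between deltaDC and WT spleen, and 3 between WT thymus and WT spleen. The inducible minus constitutive difference was then -0.89 between deltaDC and WT spleen, 3.51 between thymus and spleen in deltaDC mice and 5.31 in WT mice, and the limma fit called 1 member for organ. With the deposited matrix 5 members were at 2-fold between deltaDC and WT spleen. With no filter on background the count was 6 there and 10 between WT thymus and WT spleen. Normexp adds an offset of 50, which by construction shrinks differences of dim probes. No scaling moved the median of all genes by over 0.1. The other alternatives left the reported counts within 1.5 times and the inducible minus constitutive differences within the spot error. For those differences part of this was fixed in advance. Centring shifts all genes equally and the filters kept every gene used, so neither could change them. Hspa1a is read by 1 probe, so the median over probes could change the constitutive side only. Signals under 200 had the largest spot error, which limits Hspa1a in spleen, Hspa2, Hspb9, Dnajb13, Dnajc6, Dnajb3 and Dnajc27.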
